A study of Mus musculus with 40 samples.

Results

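The MS4A genes encode a family of membrane-spanning proteins, and 8 of them (Ms4a4a, Ms4a4b, Ms4a4c, Ms4a6b, Ms4a6c, Ms4a6d, Ms4a7 and Ms4a8a) were followed here across all groups of an RNA sequencing study of glioma-associated myeloid cells. They were chosen by name, and all 8 were found among the 54513 gene rows, of which 21826 were protein-coding, in each of 3 expression tables. CD11b+ cells, mainly microglia and infiltrating monocytes and macrophages but also dendritic cells and neutrophils, had been FACS-sorted from the brains of male mice. In the first experiment GL261, a murine glioma line carrying tdTomato and luciferase, was implanted into C57BL/6 mice, and cells were sorted at day 21 post-implantation (DPI) from 3 vehicle, 3 7aaRGD and 3 7aaRAE samples, with 3 samples from naïve mice without a tumor, each a pool of 2 animals. 7aaRGD is a peptide with an RGD integrin-binding motif and 7aaRAE a control peptide without that motif, and both were infused into the tumor from an osmotic pump at 2 mg/ml, with the solvent, water, as the vehicle. In the second experiment cells were sorted at 28 DPI, from 1 animal per sample, with vehicle (4 samples), 7aaRGD (4), an antibody against the immune checkpoint receptor PD-1 (anti-PD-1, 10 mg/kg intraperitoneally, 3 samples) or both (combination, 3), and animals without anti-PD-1 received an isotype IgG. The submitted titles call these 28 DPI animals nude mice, but the study itself describes the antibody experiment in immunocompetent mice with GL261 and says that it had none in immunodeficient mice. In the third experiment RFP-carrying U87-MG, a human glioma line, grew in athymic nude mice, which lack mature T cells, and vehicle, 7aaRGD and 7aaRAE were sampled at 21 DPI (3 samples each, pools of 2 animals). Naïve nude mice, anti-PD-1 sample 4 and combination sample 4 were not analysed here.

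Values are RPKM, reads per kilobase of gene, scaled to the total reads of a library. Levels of different genes are compared only as far as the gene lengths used hold. The annotated exonic length ran from 836 bases for Ms4a4a to 8780 bases for Ms4a4b. Plain RPKM is never below 0, but 12.6% to 14% of values in rows with any signal were, for a reason that was not tested. Values were tested by limma on the log2(RPKM + 1) scale, for protein-coding genes that averaged 1 RPKM or more across the samples in a fit, with Benjamini-Hochberg adjustment and a threshold of 0.05, and a log2 difference below is on this scale. The number of reads behind each value is unknown. The differences between replicates spanned 7 of the 8 possible dimensions in the 21 DPI GL261 table and 9 of 10 in the 28 DPI table, so the residual degrees of freedom there may be counted 1 too high. The cause was not tested. Itgam, which encodes CD11b itself, lay between 51.2 and 195 RPKM and the pan-leukocyte gene Ptprc between 17.9 and 56.9 RPKM in every sample. The tables were normalized separately, so levels of different experiments are set side by side without a test.

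MS4A proteins cross the membrane several times and associate with other receptors at the cell surface. The best-known members mark particular leukocytes: Ms4a1 encodes CD20 of B cells and Ms4a2 the beta chain of the high-affinity IgE receptor of mast cells and basophils. Ms4a4a and Ms4a7 are known as genes of macrophages, and variants in the human MS4A cluster are linked to the level of soluble TREM2, a microglial receptor. Ms4a4b is known from T cells. The 8 members lie in 1 cluster on chromosome 19 (mm10), 537 kb from end to end, and 19 Ms4a genes are annotated on that chromosome. In order along it are Ms4a8a (minus strand, 11067471 to 11081102), Ms4a7 (minus, 11321039 to 11336146), Ms4a4a (plus, 11375523 to 11392790), Ms4a4c (plus, 11404770 to 11427246), Ms4a4b (plus, 11443553 to 11467055), Ms4a6c (plus, 11469366 to 11482192), Ms4a6b (plus, 11516512 to 11531256) and Ms4a6d (minus, 11586604 to 11604849). Some members are close copies of each other: of the 50-base stretches in a gene's annotated transcripts, 8.19% of those of Ms4a4c occurred also in another Ms4a gene, most often in Ms4a4b, and 5.85% of those of Ms4a6c, most often in Ms4a6b. The share was 3.44% for Ms4a6b, 2.31% for Ms4a6d and 2.24% for Ms4a4b, while Ms4a4a, Ms4a7 and Ms4a8a shared none. Reads from shared stretches could be assigned to either copy or lost, which was not tested.

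Promoter windows of 300 bases (250 before and 50 after the start of the gene, from RefSeq, GRCm38.p6) were at hand for 7 of the 8 members. The windows of 4 genes are shown because the results turn on these genes: Ms4a4a and Ms4a4c moved in opposite directions with anti-PD-1, and Ms4a6b and Ms4a6c moved together. Capitals mark matches, on either strand, to any of 5 short motifs, and each window is written 5′ to 3′ on the strand of its gene. The RefSeq starts of Ms4a6b and Ms4a4c lie downstream of the GENCODE starts given above, so their windows are inside the spans of these genes, and positions below count from the RefSeq start.
Ms4a4a, chr19:11375238-11375537, plus strand: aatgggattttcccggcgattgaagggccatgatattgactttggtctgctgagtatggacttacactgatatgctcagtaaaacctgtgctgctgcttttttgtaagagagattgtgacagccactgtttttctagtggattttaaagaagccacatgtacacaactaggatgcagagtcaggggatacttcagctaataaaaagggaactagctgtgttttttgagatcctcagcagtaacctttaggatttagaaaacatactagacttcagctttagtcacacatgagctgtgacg
Ms4a4c, chr19:11407411-11407710, plus strand: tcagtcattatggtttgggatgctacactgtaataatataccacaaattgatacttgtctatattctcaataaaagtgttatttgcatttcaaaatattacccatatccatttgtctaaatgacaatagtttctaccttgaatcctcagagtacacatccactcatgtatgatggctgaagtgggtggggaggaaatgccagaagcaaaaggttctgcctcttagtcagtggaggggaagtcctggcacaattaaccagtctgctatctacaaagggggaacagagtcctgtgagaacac
Ms4a6b, chr19:11518309-11518608, plus strand: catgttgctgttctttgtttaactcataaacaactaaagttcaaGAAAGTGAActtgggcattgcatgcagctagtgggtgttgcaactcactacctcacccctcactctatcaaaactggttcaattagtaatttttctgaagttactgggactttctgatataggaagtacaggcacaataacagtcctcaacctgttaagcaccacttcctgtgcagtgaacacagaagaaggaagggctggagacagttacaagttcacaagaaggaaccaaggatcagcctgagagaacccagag
Ms4a6c, chr19:11469118-11469417, plus strand: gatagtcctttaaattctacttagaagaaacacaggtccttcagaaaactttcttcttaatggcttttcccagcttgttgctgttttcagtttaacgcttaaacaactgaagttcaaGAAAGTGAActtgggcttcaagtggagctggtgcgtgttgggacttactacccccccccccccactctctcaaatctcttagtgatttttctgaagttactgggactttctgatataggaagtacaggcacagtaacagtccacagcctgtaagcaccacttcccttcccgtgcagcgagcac

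The motifs searched were GAAANNGAA (the core of an interferon-stimulated response element), the palindrome TTCNNNGAA (an interferon-gamma-activated site), GAGGAAG (an ETS core of the PU.1 type), TTGCNNAA (C/EBP type) and TGCTGAC (a MAF half-site). Of 32851 promoters of this length, 8.56% held the first, 8.30% the second, 13.6% the third, 10.8% the C/EBP type and 4.67% the MAF half-site. GAAANNGAA occurred once in the windows of Ms4a6b (starting 206 bases before the RefSeq start) and Ms4a6c (133 bases before), and once in each of the windows at the 2 annotated starts of Ms4a7. The MAF half-site occurred once, in the window of Ms4a8a, and no other match was found in any of the 8 windows searched. The windows of Ms4a6b and Ms4a6c also had a run of 48 identical bases in common, and those of Ms4a4b and Ms4a4c a run of 20. These matches describe letters in the reference and were not tested as sites.

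In naïve brains the members fell into clear steps. Ms4a6d was the highest at 47.4, 47.3 and 45.5 RPKM in samples 1, 2 and 3, followed by Ms4a6c (21.5, 21.4 and 21.98) and Ms4a6b (17.2, 17.3 and 18.0). Ms4a4a (3.92, 3.78 and 5.09), Ms4a4c (2.46, 2.75 and 2.61) and Ms4a7 (1.47, 1.86 and 2.23) were expressed at a few RPKM. Ms4a8a was listed at 0.218, 0.121 and 0.196 and Ms4a4b at no more than 0.0363 RPKM, and values down to -0.40 RPKM occur in this table, so neither is told apart from 0. No 2 neighbours in this order overlapped between samples.

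With a GL261 glioma and vehicle, every member was higher than in naïve mice. Ms4a4c, at 251, 311 and 349 RPKM in the 3 vehicle samples, was 116 times its naïve mean (log2 difference 6.39, standard error 0.11, limma adjusted p = 5.08e-09). Ms4a4a, at 412, 331 and 180.1 RPKM, was 72.2 times the naïve mean (log2 difference 5.80, standard error 0.27, adjusted p = 3.29e-07). Vehicle sample 3 had the lowest Ms4a4a level and the highest Ms4a4c level of the vehicle samples, and even this sample was far above the naïve range.

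The Ms4a6 genes, which had the highest naïve levels, rose by smaller factors. Ms4a6c reached 354, 359 and 432 RPKM, 17.6 times naïve (log2 difference 4.07, adjusted p = 7.70e-09). Ms4a6d reached 382, 388 and 406 RPKM, 8.38 times naïve (log2 difference 3.04, adjusted p = 5.08e-09). Ms4a6b reached 76.6, 85.0 and 94.4 RPKM, 4.87 times naïve and the smallest rise of the tested members (log2 difference 2.22, adjusted p = 8.29e-08). The difference between naïve and tumor was unequal within this subfamily: the ratio of Ms4a6c to Ms4a6d within a sample was 0.463 ± 0.0172 (SD, n = 3) in naïve mice and 0.973 ± 0.0794 with vehicle, and that of Ms4a6d to Ms4a6b was 2.67 ± 0.125 and 4.62 ± 0.344.

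Ms4a7 rose to 43.5, 33.0 and 39.0 RPKM, 20.7 times naïve (log2 difference 3.79, adjusted p = 6.02e-08). Ms4a8a rose to 18.1, 18.5 and 14.2 RPKM from a naïve level near 0 (log2 difference 3.92, adjusted p = 2.07e-08), and it entered the test only through its vehicle level. Ms4a4b stood at 0.796, 0.855 and 1.35 RPKM with vehicle and was too low over the 6 samples to be tested. Leaving Ms4a8a aside, the 6 members that averaged over 1 RPKM in naïve mice as well were all higher with a tumor at an adjusted p under 0.05, where 34.6% of the 9722 genes tested were higher. Groups without overlap were common in this comparison (85.4% of all genes). The log2 differences of the 6 members ranged from 2.22 to 6.39 beside a median of -0.14 for all genes, and other scaling factors moved the latter to between -0.01 and 0.001, far less than any member's difference. Ranked by log2 difference among all genes tested, Ms4a4c was number 21 and Ms4a4a number 31, and by mean level Ms4a6d went from rank 847 to rank 104, and Ms4a4a from rank 6540 to rank 137, among the 21826 protein-coding rows.

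**Figure D1:**
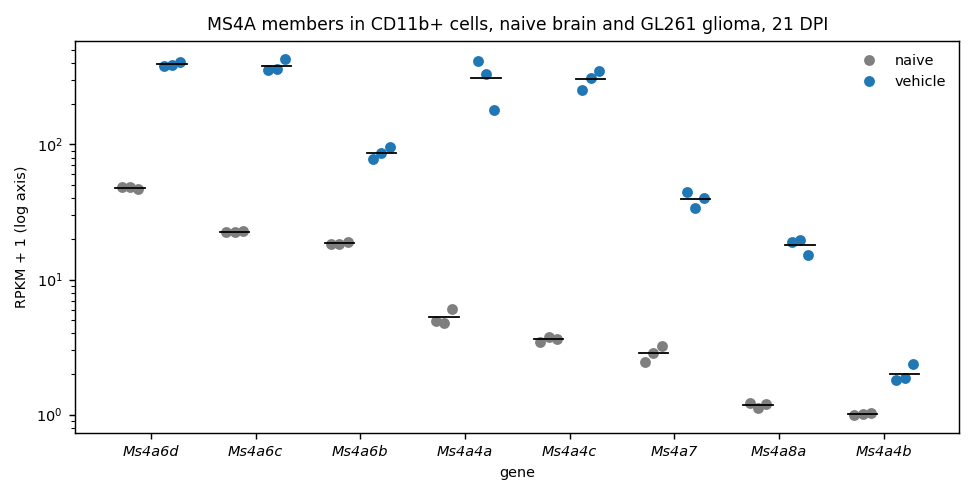
Level of each member in naïve mice (grey) and in GL261-bearing mice with vehicle (blue) at 21 DPI, as RPKM + 1 on a log axis; points are samples (3 per group, 2 animals each) and lines are means. For all 8 members the vehicle points lie above the naïve points, with the widest gaps for Ms4a4c, Ms4a4a and Ms4a6c and the narrowest for Ms4a6b and the low Ms4a4b.

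The cell types in the sorted samples differed between these groups as well. All 12 genes of a microglia list were lower with a tumor, with a summed level of 18554 to 19281 RPKM in naïve and 1523 to 2219 RPKM in vehicle samples, and all 10 genes of an infiltrating monocyte list were higher (summed 33.9 to 36.8 against 1803 to 2569 RPKM, with Vcan and F10 under 0.5 RPKM in naïve mice). Of 9 macrophage genes 8 were higher, and the list summed to 527 to 687 against 5150.2 to 8179 RPKM. Among all genes 34.6% were higher and 48.2% lower. Arg1, Gpnmb and Fabp5, which are among these 8, were under 0.5 RPKM in naïve mice. Like Vcan and F10, they entered the test only through their vehicle levels. In bulk samples a change in the number of cells of a type cannot be told apart from a change in RNA per cell, and the part of these cells in the MS4A levels was not tested.

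The other MS4A genes that could be tested were lower with a tumor. Of 18 further family members searched for, 15 were in the tables and 2 were high enough to test in naïve and vehicle samples, Tmem176b and Tmem176a, which encode related membrane proteins of myeloid cells. Both were lower with a tumor: Tmem176b had a mean of 187 RPKM in naïve and 50.3 RPKM in vehicle samples (log2 difference -1.89, adjusted p = 1.27e-06), and Tmem176a 51.2 and 16.4 RPKM (log2 difference -1.60, adjusted p = 2.97e-06). Ms4a14 was the only other one to reach a mean of 1 RPKM, and it was higher on average with vehicle (1.70 RPKM) than in naïve mice (0.245 RPKM), without a test. Ms4a1 and Ms4a2, the genes of B cells and mast cells, were under 0.5 RPKM on average in every group of all 3 tables. Of 7 genes for reported partners of MS4A proteins and for the proteases that shed TREM2, 6 were tested, with 0 higher and 5 lower, beside 48.2% of all genes lower. Trem2, a lipid receptor of microglia, was lower in glioma (252 RPKM in naïve, 61.7 RPKM in vehicle, log2 difference -2.03, adjusted p = 1.73e-06), and Adam10, a sheddase of TREM2, also fell (105 and 52.3 RPKM, log2 difference -0.99, adjusted p = 1.23e-06). Adam17, Card9 and Syk were lower with log2 differences of -0.38, -0.50 and -0.20, and Tyrobp, the signaling adaptor of TREM2, had a difference of 0.11 that did not pass (adjusted p = 0.235). Clec7a, which encodes the beta-glucan receptor dectin-1, a reported partner of MS4A4A, is annotated as a polymorphic pseudogene and was therefore not among the protein-coding genes tested. Its mean was 11.7 RPKM in naïve and 477 RPKM in vehicle samples.

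The summed level of the 8 members was 94.8 ± 0.739 RPKM (SD, n = 3) in naïve mice and 1526 ± 11.6 RPKM with vehicle. Ms4a6d made up 49.3% ± 1.51 of this sum in naïve mice and 25.7% ± 1.00 with vehicle, and Ms4a6b 18.5% ± 0.308 and 5.59% ± 0.626. Ms4a4c went the other way, from 2.75% ± 0.150 to 19.9% ± 3.37, and so did Ms4a4a, from 4.50% ± 0.725 to 20.1% ± 7.58. The share of Ms4a6c was 22.8% ± 0.172 and 25.0% ± 3.02. With vehicle, Ms4a6d, Ms4a6c, Ms4a4a and Ms4a4c followed in this order of their means without a gap between samples of neighbours, and Ms4a6b, Ms4a7, Ms4a8a and Ms4a4b each lay below the range of the one before.

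**Figure D2:**
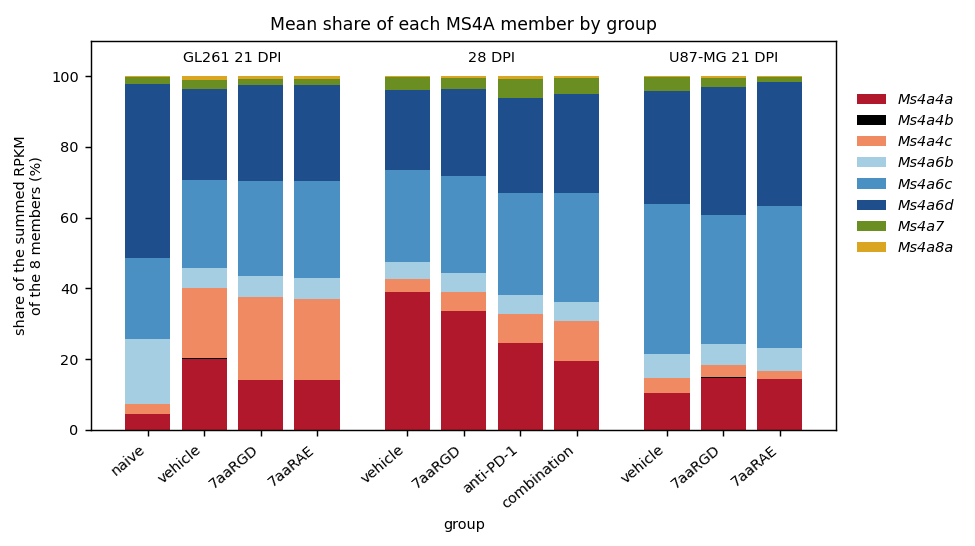
Mean share of each member in the summed RPKM of the 8 members, for each of the 11 groups with data (stacked bars, percent; the tables were normalized separately). Ms4a6d is the largest segment of the naïve bar at 49.3%, and at 28 DPI the Ms4a4a segment goes from 39.1% with vehicle to 19.3% with the combination while that of Ms4a4c goes from 3.59% to 11.3%.

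The next comparison asked whether the integrin-binding peptide altered these genes in GL261 gliomas at 21 DPI, with 7aaRAE as the control peptide. No member passed the threshold with 7aaRGD against vehicle, where 14 of the 9436 genes tested did (0.148%). With median-of-ratios factors 0 genes and with TMM factors 8 higher and 1 lower passed. Ms4a7 was at 25.8, 24.4 and 24.8 RPKM in the 3 7aaRGD samples, all below the lowest vehicle sample (log2 difference -0.60, 95% interval -0.99 to -0.20, limma adjusted p = 0.237). Ms4a4b, the member known from T cells, was at 1.86, 1.60 and 1.49 RPKM, all above vehicle (log2 difference 0.41, 95% interval 0.17 to 0.66, adjusted p = 0.195). These were the 2 of 8 members whose groups did not overlap, beside 17.6% of all genes. At an unadjusted p under 0.05 there were 3 of 8 members, beside 13.5% of all genes. Ms4a8a was the other, at 10.03, 9.95 and 15.9 RPKM, where 1 7aaRGD sample lay within the vehicle range (log2 difference -0.49, adjusted p = 0.296).

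The summed level of 16 T and NK cell genes was 9.92 to 33.6 RPKM with vehicle, with Cd3e, Cd3d, Cd3g, Cd8a, Cd8b1 and Ncr1 under 0.5 RPKM, and 30.6 to 80.7 RPKM with 7aaRGD, where none was. In naïve mice all 16 were under 0.5 RPKM. The microglia genes summed to 1523 to 2219 RPKM with vehicle and 2300.0 to 3071 RPKM with 7aaRGD, without overlap. How often sums of other genes separate in this way was not computed. The macrophage genes summed to 5150.2 to 8179 and 4966 to 5529.8 RPKM in the same groups, and 0 genes of these 3 lists passed the threshold. With 7aaRAE the microglia genes summed to 1982 to 2533 RPKM and the macrophage genes to 4998 to 5723 RPKM. The T and NK cell genes summed to 12.02 to 42.84 RPKM with 7aaRAE. All 3 of these ranges overlapped those of vehicle and those of 7aaRGD. The part of such cells in the Ms4a4b and Ms4a7 levels was not tested. Ms4a4b shares transcript stretches with Ms4a4c, which averaged 303 RPKM with vehicle. The part of wrongly assigned Ms4a4c reads in the Ms4a4b level was not tested either. Without vehicle sample 3, 1 member passed the threshold, Ms4a4b (log2 difference 0.54, adjusted p = 0.0341), and 120 genes in all.

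Ms4a6d was at 392 ± 12.4 RPKM (SD, n = 3) with vehicle, 391 ± 8.96 with 7aaRGD and 381 ± 37.3 with 7aaRAE, and the 95% interval of the log2 difference of 7aaRGD from vehicle was -0.17 to 0.17. For Ms4a6c the interval was -0.17 to 0.24, for Ms4a6b -0.15 to 0.24 and for Ms4a4c -0.15 to 0.49. Ms4a4a was measured less precisely. Its samples were at 158, 202 and 255 RPKM with 7aaRGD and 208, 183 and 201 RPKM with 7aaRAE, within the vehicle range of 180.1 to 412 RPKM except for 1 7aaRGD sample below it (log2 difference from vehicle -0.53, interval -1.14 to 0.08, and -0.56, interval -1.17 to 0.05).

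With 7aaRAE against the same vehicle samples, 0 of 8 members and 0 of 9436 genes (0%) passed, with 2 members at an unadjusted p under 0.05, beside 6.36% of all genes. Ms4a8a was at 11.7, 8.36 and 9.79 RPKM, below every vehicle sample, and was the only member without overlap, beside 12.6% of all genes (log2 difference -0.71, interval -1.12 to -0.31, adjusted p = 0.718). Ms4a7 was at 26.6, 20.3 and 36.3 RPKM, overlapping vehicle (log2 difference -0.49, interval -0.88 to -0.09). Because both peptide groups share their vehicle samples, a low or high vehicle value moves both differences. In the direct comparison of 7aaRGD with 7aaRAE, again 0 of 8 members and 0% of genes passed, and 0 members had an unadjusted p under 0.05, beside 5.51% of all genes. The interval of that difference was -0.50 to 0.29 for Ms4a7, -0.18 to 0.63 for Ms4a8a, -0.59 to 0.64 for Ms4a4a and -0.04 to 0.46 for Ms4a4b, so differences within these bounds between the RGD peptide and its control were not resolved. For Ms4a4b the 7aaRAE samples were at 1.35, 1.09 and 1.44 RPKM. None of the tested genes of the further family (3) or of the partner list (6) passed in any of these 3 comparisons.

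**Figure D3:**
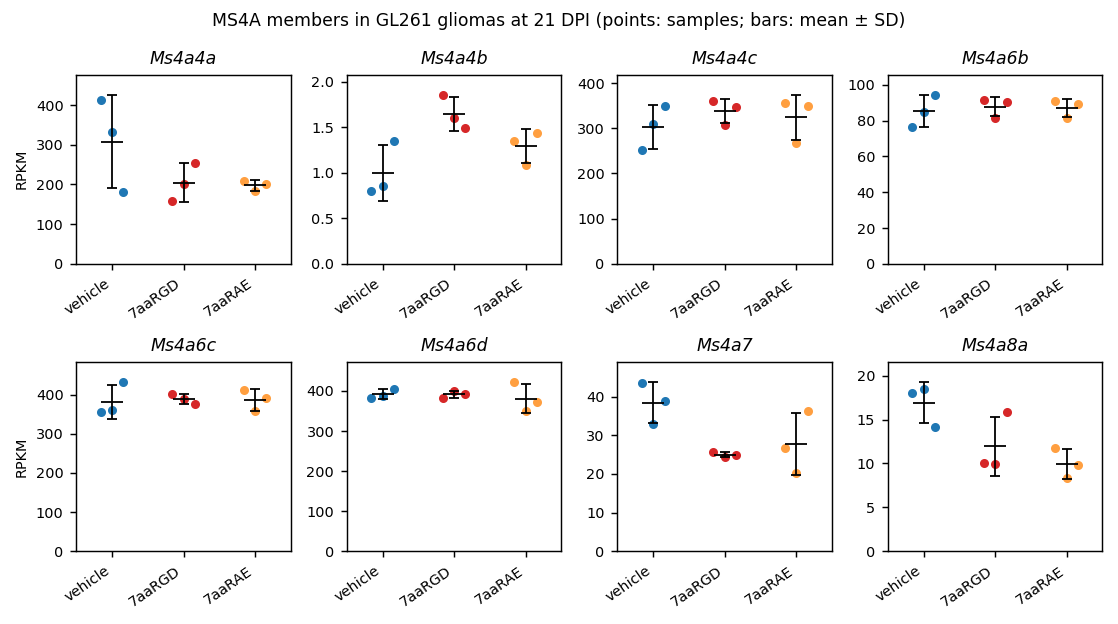
RPKM of each member in GL261-bearing mice at 21 DPI with vehicle (blue), 7aaRGD (red) or 7aaRAE (orange); points are samples (3 per group) and bars are the mean ± SD, each panel with its own linear axis from 0. Ms4a7 and Ms4a4b are the panels in which the 7aaRGD points lie apart from the vehicle points, and in the Ms4a4a panel the vehicle points spread from 180.1 to 412 RPKM.

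At 28 DPI, the comparisons asked how the checkpoint antibody, alone or with 7aaRGD, altered the members, and Ms4a4a and Ms4a4c moved in opposite directions. Ms4a4a was at 368, 428, 386 and 477 RPKM in the 4 vehicle samples and at 443, 433, 330.4 and 298 RPKM in the 4 7aaRGD samples. With anti-PD-1 it was at 197, 229.7 and 294 RPKM and with the combination at 132, 224 and 108 RPKM. The samples with the antibody all lay below every sample without it, by a narrow gap (294 RPKM with anti-PD-1 and 298 with 7aaRGD). Ms4a4c was at 24.4, 37.6, 51.2 and 41.2 RPKM with vehicle and 50.5, 61.2, 48.6 and 70.1 RPKM with 7aaRGD, against 87.7, 79.9 and 78.2 RPKM with anti-PD-1 and 88.1, 87.7 and 83.6 RPKM with the combination. Here every antibody-treated sample was above every other one. The share of all genes that separate in this way was not computed.

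Against vehicle, Ms4a4a was lower with anti-PD-1 (log2 difference -0.80, standard error 0.22, limma adjusted p = 0.0202) and Ms4a4c was higher (log2 difference 1.11, standard error 0.19, adjusted p = 0.00144). These were 2 of the 7 members tested, 1 in each direction, beside 10.8% of 9732 genes higher and 12.2% lower. The fall of Ms4a4a did not pass when vehicle sample 4 (adjusted p = 0.0512), anti-PD-1 sample 1 (0.0813) or anti-PD-1 sample 2 (0.0665) was left out, with log2 differences between -0.78 and -0.67. The combination differed from vehicle in the same 2 members, with Ms4a4a lower (log2 difference -1.48, standard error 0.22, adjusted p = 1.81e-04) and Ms4a4c higher (log2 difference 1.19, standard error 0.19, adjusted p = 2.64e-04). Among all genes 17.5% were higher and 25.8% lower, and other scaling factors moved the higher share of the genes called from 40.5% to 51.0%. Within a sample, the ratio of Ms4a4c to Ms4a4a was 0.0933 ± 0.0280 (SD, n = 4) with vehicle, 0.159 ± 0.0527 (n = 4) with 7aaRGD, 0.353 ± 0.0900 (n = 3) with anti-PD-1 and 0.611 ± 0.197 (n = 3) with the combination.

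**Figure D4:**
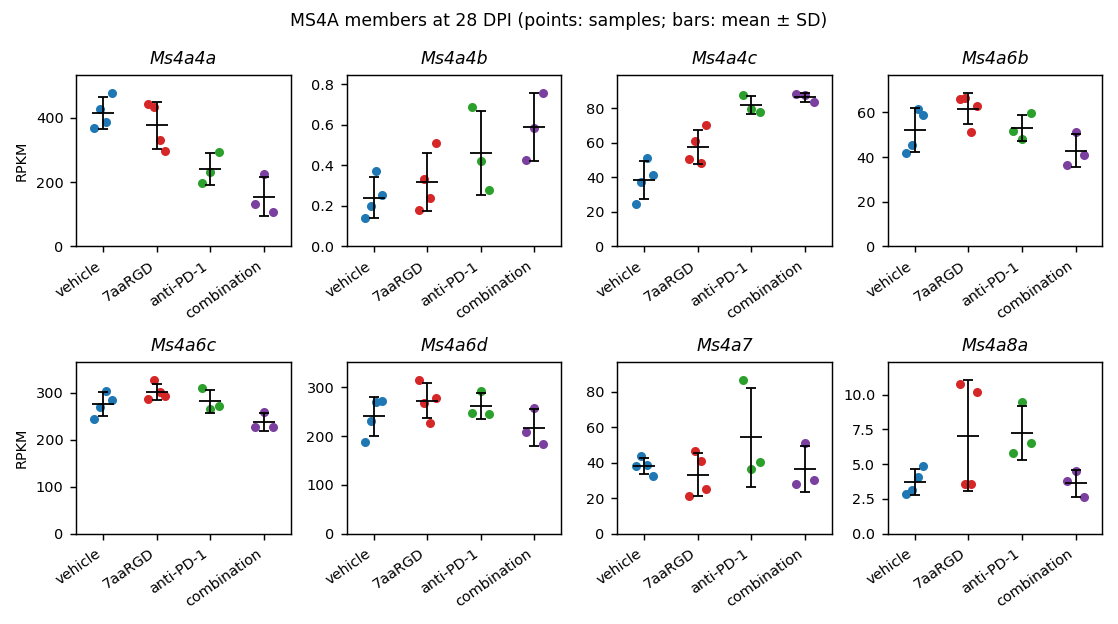
RPKM of each member at 28 DPI with vehicle (blue, 4 samples), 7aaRGD (red, 4), anti-PD-1 (green, 3) and the combination (purple, 3), 1 animal per sample; bars are the mean ± SD and each panel has its own linear axis from 0. Ms4a4a is lower and Ms4a4c higher in all 6 antibody-treated samples, while the points of Ms4a6d and Ms4a7 overlap between all groups.

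Against 7aaRGD alone, the combination differed in 4 of 7 members. Ms4a4c was the 1 that was higher (log2 difference 0.59, adjusted p = 0.0246), beside 13% of all genes. The 3 that were lower, beside 23.6% of all genes, were Ms4a4a (log2 difference -1.33, adjusted p = 6.38e-04), Ms4a6b (log2 difference -0.52, adjusted p = 0.0157) and Ms4a6c (log2 difference -0.34, adjusted p = 0.00819). Other scaling factors moved the higher share of all genes called in this comparison from 35.6% to 51.2%. Ms4a6c was at 287, 326, 301 and 293 RPKM with 7aaRGD and 227, 259 and 227 RPKM with the combination. Ms4a6b was at 66.04, 66.3, 51.3 and 62.9 and 36.5, 51.1 and 41.1 RPKM. Both genes overlapped between the combination and vehicle. The call of Ms4a4c was lost without any 1 of the combination samples 1, 2 and 3 or without 7aaRGD sample 1 or 3 (adjusted p = 0.0541 to 0.0715), and that of Ms4a6b without combination sample 1 (0.0821) or 3 (0.0527), so that 2 members passed without combination sample 1 or 3.

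Ms4a6d did not pass in any comparison at 28 DPI. It was at 188, 231, 271 and 272 RPKM with vehicle, 315, 268, 228 and 279 with 7aaRGD, 248, 292 and 246 with anti-PD-1 and 209, 259 and 184 with the combination (combination against 7aaRGD, log2 difference -0.33, adjusted p = 0.0994). Ms4a7 was at 38.0, 43.7, 38.7 and 32.2 RPKM with vehicle and 20.9, 46.4, 40.9 and 24.9 with 7aaRGD. With anti-PD-1 it was at 86.4, 36.1 and 40.5 RPKM, the first sample far above the other two, and with the combination at 27.9, 51.3 and 29.9 RPKM. The difference of the combination from anti-PD-1 was -0.51 for Ms4a7 (interval -1.24 to 0.22, limma adjusted p = 0.519). It ranged from -0.78 to -0.12 when a sample was left out. The study, which used another test, names Ms4a7 among the genes lower with the combination than with anti-PD-1.

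Ms4a8a, a gene known from tumor-associated macrophages of mice, showed 2 levels within the 7aaRGD group, 10.8, 3.59, 3.59 and 10.2 RPKM in samples 1 to 4. The infiltrating monocyte genes summed to 1065, 262, 362 and 736 RPKM in the same 4 samples, high where Ms4a8a was high, and the macrophage genes to 13345, 16758, 16796 and 11618 RPKM, and the part of these cells in the Ms4a8a level was not tested. Ms4a8a was at 2.84, 3.11, 4.04 and 4.87 RPKM with vehicle, 5.77, 9.44 and 6.49 with anti-PD-1 and 3.77, 4.54 and 2.61 with the combination. In the same order the monocyte sums were 325, 453, 455 and 519 RPKM, 597, 1173 and 786 RPKM, and 866, 610 and 568 RPKM. They ranked as Ms4a8a did with vehicle and anti-PD-1, but not with the combination. The combination sums lay above every vehicle sum, while the Ms4a8a levels of these groups overlapped. Ms4a8a did not pass the threshold with anti-PD-1 against vehicle (log2 difference 0.80, limma adjusted p = 0.0936). Nor did it for the combination against anti-PD-1 (log2 difference -0.82, adjusted p = 0.287). When only the anti-PD-1 and vehicle samples were fitted, the first of these passed (adjusted p = 0.0198). Whether the combination differed from the sum of its single treatments was tested by an interaction term. It was negative for all 7 members tested, and 0 of them and 0% of all genes passed. At an unadjusted p under 0.05 there were 4 members (Ms4a8a, Ms4a6c, Ms4a6b and Ms4a6d), beside 8.16% of all genes, and the lowest adjusted p among the members was 0.588, with a log2 interaction of -1.47 and an interval of -2.46 to -0.48 for Ms4a8a. The median interaction was -0.52 for the 7 members and -0.06 for all genes.

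For 7aaRGD against vehicle at 28 DPI, 0 of 7 members passed, beside 0.647% of all genes, and no member was free of overlap, beside 8% of all genes. With median-of-ratios factors 3 genes were higher and 22 lower, and with TMM factors 0 passed. Ms4a4c was the 1 member with an unadjusted p under 0.05, beside 14.6% of all genes, and had a log2 difference of 0.60 (interval 0.22 to 0.97, adjusted p = 0.141), and 2 of 4 7aaRGD samples lay within the vehicle range. For the combination against anti-PD-1, 0 of 7 members and 0.0411% of all genes passed, and 3 members had an unadjusted p under 0.05, beside 15% of all genes. The 4 genes that passed were 2 higher and 2 lower, and 3 higher and 1 lower with other scaling factors. Ms4a6c and Ms4a8a were the 2 of 7 members whose groups did not overlap, beside 21.5% of all genes. The log2 difference was -0.24 for Ms4a6c (interval -0.44 to -0.04) and -0.68 for Ms4a4a (interval -1.19 to -0.17, adjusted p = 0.202).

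**Figure D5:**
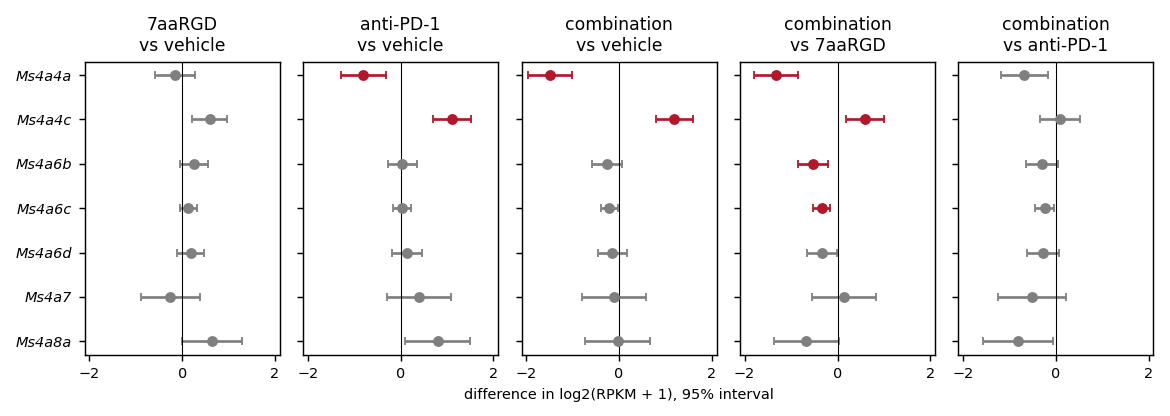
Log2 differences of the 7 tested members in 5 comparisons at 28 DPI with 95% intervals from limma (each panel 1 comparison; red where the adjusted p was under 0.05, grey otherwise). The red points are Ms4a4a below 0 and Ms4a4c above 0 in the 3 comparisons of antibody-treated with other groups, joined by Ms4a6b and Ms4a6c below 0 against 7aaRGD.

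Markers of other cells moved in the same comparisons. Among all genes, 10.8% were higher and 12.2% lower with anti-PD-1 against vehicle. With the combination 17.5% were higher and 25.8% lower against vehicle, and 13% and 23.6% against 7aaRGD. Of 10 infiltrating monocyte genes, 5 were higher with anti-PD-1 and the same 5 with the combination, against vehicle. Their summed level was 325 to 519 RPKM with vehicle, 262 to 1065 with 7aaRGD, 597 to 1173 with anti-PD-1 and 568 to 866 with the combination, and Vcan was under 0.5 RPKM with vehicle. Of 16 T and NK cell genes 7 were tested, of which 0 passed with anti-PD-1 and 6 were higher with the combination. Their sum was 4.97 to 14.2 RPKM with vehicle, 2.32 to 14.5 with 7aaRGD, 4.50 to 80.0 with anti-PD-1 and 35.1 to 103 with the combination, while Cd3e, Cd3d, Cd3g, Cd8a and Cd8b1 were under 0.5 RPKM in all 4 groups. Of 9 macrophage genes, 0 passed with anti-PD-1 and 3 were lower with the combination (Mrc1, Apoe and Gpnmb). Of 8 dendritic cell genes 3 were tested, and 2 were higher with anti-PD-1 and 3 with the combination. Among the genes called here, Ncr1 (T and NK) and Cd209a (dendritic) were under 0.5 RPKM with vehicle. Both entered the test only through the antibody-treated groups. Of 12 microglia genes, 3 were higher with anti-PD-1 and 7 with the combination. Against 7aaRGD, the combination had 7 of 7 tested T and NK cell genes, 4 of 10 monocyte genes, 3 of 3 dendritic cell genes and 3 of 12 microglia genes higher. Of these, Nkg7, Ncr1, Il2rb, Prf1 and Cd209a were under 0.5 RPKM with 7aaRGD and entered the test only through other groups. In the same comparison 1 of 9 macrophage genes was higher (Fabp5) and 1 lower (Mrc1), and 2 of 7 tested genes of border-associated macrophages were lower (Mrc1 and Stab1). The part of these cells in the changes of Ms4a4a, Ms4a4c, Ms4a6b and Ms4a6c was not tested. Ms4a4b was too low for a test at 28 DPI, at 0.138, 0.199, 0.374 and 0.251 RPKM with vehicle and 0.182 to 0.509 RPKM with 7aaRGD. It was at 0.279 to 0.686 RPKM with anti-PD-1 and 0.425, 0.584 and 0.757 RPKM with the combination. Values down to -0.42 RPKM occur in this experiment. Of the further MS4A family 3 genes were tested, and 1 passed in 1 comparison, Ms4a14, with a mean of 5.02 RPKM with vehicle and 2.68 RPKM with the combination. The partner list had 2 of 6 genes higher with anti-PD-1 (Syk and Adam17), and 2 higher and 2 lower with the combination, against vehicle.

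In U87-MG gliomas in nude mice the same peptides were compared at 21 DPI, and 0 of the 6 members tested passed in any of the 3 comparisons. Across all genes 0% passed with 7aaRGD against vehicle, 0.0104% with 7aaRAE against vehicle and 0% between the peptides, and 0, 2 and 2 members had an unadjusted p under 0.05, beside 3.77%, 7.72% and 3.38% of all genes. Ms4a6c had the highest mean of the members in each group, at 105, 108 and 142 RPKM with vehicle, 88.0, 95.03 and 131 with 7aaRGD and 120.4, 149 and 167 with 7aaRAE (each from the lowest to the highest sample). Ms4a6d was at 75.3, 84.0 and 106, 98.5, 102 and 103 and 98.9, 134 and 150.5 RPKM in the same groups. For both genes the 7aaRAE samples overlapped the vehicle samples.

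Ms4a6b was at 17.5, 17.7 and 20.6 RPKM with vehicle, 15.3, 17.1 and 18.3 with 7aaRGD and 21.1, 21.7 and 23.8 with 7aaRAE. Every 7aaRAE sample was above every vehicle sample (log2 difference 0.25, interval 0.03 to 0.46, limma adjusted p = 0.577). The log2 difference of 7aaRGD from 7aaRAE was -0.38 (interval -0.59 to -0.16, adjusted p = 0.9999). Ms4a7 was at 8.76, 9.30 and 15.4 RPKM with vehicle, 3.38, 8.43 and 13.2 with 7aaRGD and 4.54, 5.80 and 6.57 with 7aaRAE, the last below all vehicle samples (log2 difference -0.84, interval -1.70 to 0.02, adjusted p = 0.642). These were the 2 of 6 members without overlap between 7aaRAE and vehicle, beside 16.5% of all genes. Ms4a4a varied most, at 21.3, 27.4 and 38.9 RPKM with vehicle, 21.9, 36.7 and 74.6 with 7aaRGD and 23.6, 40.7 and 106 with 7aaRAE, and the interval of its difference between the peptides was -1.504 to 1.00. In the same order of samples, the macrophage genes summed to 8313, 12922 and 10752 RPKM with vehicle, 5852, 9244 and 15505 with 7aaRGD and 7765, 9941 and 12812 with 7aaRAE, and the microglia genes to 12651, 11097 and 9929, 12795, 10396 and 7501 and 10737, 9699.8 and 8329 RPKM. In both peptide groups the sample with the highest Ms4a4a had the highest macrophage and the lowest microglia sum, and the part of these cells in the Ms4a4a level was not tested. Ms4a4c lay from 4.47 to 12.7 RPKM over all 9 samples. Ms4a8a (0.213 to 1.67 RPKM) and Ms4a4b (at most 0.073 RPKM) were too low to test.

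Set side by side, the vehicle groups had different mixtures of members. The summed level was 1526 ± 11.6 RPKM in GL261 at 21 DPI, 1063 ± 114 (n = 4) at 28 DPI and 278 ± 49.6 (n = 3) in U87-MG, against 94.8 ± 0.739 in naïve C57BL/6 mice. Ms4a4a held 20.1% ± 7.58, 39.1% ± 3.01 and 10.4% ± 1.505 of this sum in the 3 experiments, and Ms4a4c 19.9% ± 3.37, 3.59% ± 0.776 and 4.24% ± 0.812. Ms4a4c was thus at 303 ± 49.2 RPKM at 21 DPI and 38.6 ± 11.1 RPKM at 28 DPI, and Ms4a7 at 38.5 ± 5.29 and 38.2 ± 4.68 RPKM. The ratio of Ms4a6d to Ms4a6b was 4.62 ± 0.344, 4.64 ± 0.303 and 4.73 ± 0.447. The infiltrating monocyte genes summed to 1803 to 2569 RPKM, 325 to 519 RPKM and 255 to 348 RPKM in these vehicle groups and the microglia genes to 1523 to 2219, 1775 to 2479 and 9929 to 12651 RPKM. Tumor, host strain, day and pooling differ between the experiments and cannot be told apart.

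Over the tumor-bearing samples of each table (9, 14 and 9, which include the treatment differences described above), the members did not vary as 1 block. Ms4a6b and Ms4a6c were positively related in each table, with a Pearson r of log2(RPKM + 1) of 0.80, 0.83 and 0.84 in GL261 at 21 DPI, 28 DPI and U87-MG, and they also share transcript stretches. Ms4a6c and Ms4a6d had an r of 0.63, 0.65 and 0.72. Ms4a4a and Ms4a4c were inversely related in each table (-0.56, -0.71 and -0.83). Ms4a4a and Ms4a4b were inversely related as well (-0.80, -0.78 and -0.33). Ms4a4b was too low for a test at 28 DPI and in U87-MG, however. Its highest value was 0.757 RPKM at 28 DPI and 0.073 RPKM in U87-MG. Values down to -0.42 and -0.29 RPKM occur in these tables, so its r there may reflect the scatter of low values. Ms4a4b and Ms4a4c, which share transcript stretches, had an r of 0.74, 0.80 and 0.23.

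Among 8907 protein-coding genes that averaged 1 RPKM or more with a tumor in each of the 3 tables, the genes most like each member, by the mean of the 3 within-table correlations, were as follows. For Ms4a4c these were Oas1a (0.92), Nmi (0.90), Ifitm3 (0.90), where Oas1a encodes an oligoadenylate synthetase and Ifitm3 an interferon-induced membrane protein. For Ms4a4a they were Paox (0.94), Dusp3 (0.94), Snx5 (0.92), with Dusp3 a phosphatase and Snx5 a sorting nexin. For Ms4a7 they were Pltp (0.90), Iqgap2 (0.79), Zmynd15 (0.76), with Pltp a phospholipid transfer protein. For Ms4a6b they were Milr1 (0.73), Vta1 (0.69), Mcph1 (0.68), for Ms4a6c Milr1 (0.78), Brix1 (0.77), Nup107 (0.73) and for Ms4a6d Rraga (0.79), Riok2 (0.73), Hnrnpf (0.73). Milr1, an inhibitory receptor of myeloid and mast cells, headed the lists of both Ms4a6b and Ms4a6c. Ms4a4b and Ms4a8a were too low in at least 1 table to be ranked. These correlations describe the samples at hand, and samples of 1 table share treatments and a normalization.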

How the data were processed

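RNA sequencing of sorted CD11b+ cells was analysed for 35 of the 40 labelled samples. Per the labels and methods, reads had been trimmed (Trimmomatic), mapped to mm10 (STAR) and assigned to genes (HTSeq 0.11.1) by the authors. They deposited 3 tables of RPKM with a constant of 2 added (named normalized counts in the deposit). The authors' own test was not rerun. The constant was subtracted here, and values below 0 were set to 0 before taking log2(RPKM + 1). Gene types and positions came from GENCODE M21. Genes were tested with limma 3.58.1 (lmFit, eBayes with a trend) in R 4.3.3. Tumor-bearing groups of a table were fitted together, and vehicle and naïve samples alone. The script was tested on simulated data. Depth is unknown, so no counting interval is given. The members and all lists were chosen with earlier results of these data known. All 8 members are named, with the 3 genes most like each. Where labels do not state that samples were separate animals, p-values measure only the spread between samples. Whether numbers shared by samples of different groups stand for a pairing is not known. Of same-numbered pairs, 1 of 18 (GL261 21 DPI) and 3 of 19 (28 DPI) had residuals correlated above 0.1. This cannot decide it, because an effect of the number that was removed before deposit would leave no such correlation. Other pseudocounts, filters, scaling factors, samples left out and a replicate block were tried.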

Additional observations from a re-analysis of the deposited data

How the results depend on the processing

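The number of members past the threshold was recomputed with pseudocounts of 0.1 and 5, no filter or a filter at 5 RPKM, all named rows, values below 0 kept, median-of-ratios or TMM factors, 1 residual degree of freedom fewer, only the groups compared, a replicate block, and each sample left out. It moved by more than 1.5 times only when a sample was left out. The range was then 0 to 1 for 7aaRGD against vehicle in GL261 (1 without vehicle sample 3), 1 to 2 for anti-PD-1 against vehicle (1 without vehicle 4, anti-PD-1 1 or anti-PD-1 2) and 2 to 5 for the combination against 7aaRGD (2 without combination 1 or 3). With the replicate block, the counts were the same in the GL261 and 28 DPI comparisons, and no call of a member changed. There were 7 members higher in vehicle than naïve, 2 called for anti-PD-1 and for the combination against vehicle and 4 against 7aaRGD. The 7 include Ms4a8a, which entered that test only through its vehicle level and was set aside above. The share of all genes called under the block is not set beside these counts. The genes called among all 9732 for 7aaRGD against vehicle at 28 DPI went from 63 to 0 under the block. No paired analysis was possible because the columns carry no replicate numbers in U87-MG.

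None of the differences that changed sign passed the threshold. For 7aaRGD against 7aaRAE in GL261, Ms4a6b became -0.0146 and -0.0162 and Ms4a6c -0.0140 and -0.0156 with median-of-ratios and TMM factors. For the combination against vehicle, Ms4a8a became 0.0193 and 0.0176 with these factors and 0.14 with the replicate block. With a sample left out, the log2 differences that changed sign had the following ranges. For GL261 21 DPI 7aaRGD against vehicle, they were Ms4a6b -0.0316 to 0.12, Ms4a6c -0.0190 to 0.12, Ms4a6d -0.0206 to 0.0233. For GL261 21 DPI 7aaRAE against vehicle, they were Ms4a4c -0.0314 to 0.23, Ms4a6b -0.0392 to 0.11, Ms4a6c -0.0274 to 0.11, Ms4a6d -0.12 to 0.0169. For GL261 21 DPI 7aaRGD against 7aaRAE, they were Ms4a6b -0.0401 to 0.0591, Ms4a6c -0.0490 to 0.0550, Ms4a4a -0.14 to 0.20, Ms4a4c -0.0647 to 0.14, Ms4a6d -0.0186 to 0.12, Ms4a7 -0.31 to 0.0991. For 28 DPI anti-PD-1 against vehicle, they were Ms4a6b -0.0549 to 0.13, Ms4a6c -0.0345 to 0.0825. For 28 DPI combination against vehicle, they were Ms4a8a -0.16 to 0.15, Ms4a7 -0.38 to 0.0467. For 28 DPI combination against 7aaRGD, they were Ms4a7 -0.12 to 0.33. For 28 DPI combination against the sum of the single treatments, they were Ms4a7 -0.52 to 0.13. For U87-MG 21 DPI 7aaRGD against vehicle, they were Ms4a4c -0.62 to 0.0285. For U87-MG 21 DPI 7aaRGD against 7aaRAE, they were Ms4a4a -0.73 to 0.33, Ms4a4c -0.19 to 0.46, Ms4a7 -0.0343 to 0.82. The causes were not tested. Without a read depth, low members such as Ms4a4b and Ms4a8a have no known counting error.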
